A study of Homo sapiens with 20 samples.

Results

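The 10 mucin genes MUC1, MUC2, MUC3A, MUC4, MUC5AC, MUC5B, MUC12, MUC13, MUC17 and MUC20 were chosen by name, and all 10 were found among the 36346 gene names that the 20 libraries share. Rows that carry the same name were summed. RNA from 2 established colorectal cancer cell lines, HT29 and SW480, was captured for its coding part and sequenced 72 h after reverse transfection with siRNA. In each line, cells that received a non-targeting siRNA (AllStars Negative Control, SCR) were set against cells in which POLR1D, a subunit shared by RNA polymerases I and III, was silenced with the siRNA siPOLR1D2 or with siPOLR1D3. HT29 had 4 SCR, 2 siPOLR1D2 and 2 siPOLR1D3 libraries, and SW480 had 6, 3 and 3. Each line is a single cell model with its own gain on chromosome 13, the chromosome of POLR1D, and the silencing was transient. The labels do not say whether replicates came from separate cultures, so the p values measure the spread between these libraries, which may be technical. The question was whether a rise of MUC12 after silencing was shared by other mucins. The study itself named MUC12 from these libraries, so its direction is not independent evidence.

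Mucins are long glycoproteins with serine- and threonine-rich tandem repeats that carry dense O-linked sugars. The gel-forming mucins MUC2, MUC5AC and MUC5B are secreted by goblet and other mucous cells and polymerise into mucus, and MUC2 is the main mucin of the colonic mucus layer. MUC1, MUC3A, MUC4, MUC12, MUC13, MUC17 and MUC20 are anchored in the apical membrane, where they form the glycocalyx and can take part in signalling. MUC12, MUC13 and MUC17 are known as membrane mucins of intestinal enterocytes.

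Most members lie in clusters (GRCh38, GENCODE 29). On chromosome 7, MUC3A (chr7:100949555-100968346), MUC12 (chr7:100969623-101018949) and MUC17 (chr7:101020072-101058745) are direct neighbours on the plus strand. On chromosome 11, MUC2 (chr11:1074875-1110511), MUC5AC (chr11:1157953-1201138) and MUC5B (chr11:1223066-1262172) follow each other on the plus strand. On chromosome 3, MUC20 (chr3:195720882-195741123, plus strand) and MUC4 (chr3:195746765-195812277, minus strand) are neighbours, and MUC13 lies apart (chr3:124905442-124953819, minus strand). MUC1 is on chromosome 1 (chr1:155185824-155192916, minus strand).

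The promoters of the 3 neighbours on chromosome 7 are shown because the same small region holds the mucin that the question is about and the 2 members next to it. Each runs from 250 bases before to 50 bases after the RefSeq start (GRCh38.p14, plus strand), and capitals mark the letters of any motif searched.
MUC3A: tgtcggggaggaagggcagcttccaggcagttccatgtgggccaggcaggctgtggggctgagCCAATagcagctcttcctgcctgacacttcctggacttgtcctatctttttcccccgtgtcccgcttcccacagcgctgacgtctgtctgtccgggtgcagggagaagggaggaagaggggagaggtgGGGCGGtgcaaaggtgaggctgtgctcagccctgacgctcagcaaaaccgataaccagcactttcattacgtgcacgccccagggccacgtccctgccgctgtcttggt
MUC12: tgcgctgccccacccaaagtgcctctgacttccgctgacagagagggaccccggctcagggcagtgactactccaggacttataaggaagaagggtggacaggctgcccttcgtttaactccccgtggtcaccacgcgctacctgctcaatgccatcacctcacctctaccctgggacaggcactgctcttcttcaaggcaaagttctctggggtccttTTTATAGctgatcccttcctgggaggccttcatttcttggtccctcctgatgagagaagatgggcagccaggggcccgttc
MUC17: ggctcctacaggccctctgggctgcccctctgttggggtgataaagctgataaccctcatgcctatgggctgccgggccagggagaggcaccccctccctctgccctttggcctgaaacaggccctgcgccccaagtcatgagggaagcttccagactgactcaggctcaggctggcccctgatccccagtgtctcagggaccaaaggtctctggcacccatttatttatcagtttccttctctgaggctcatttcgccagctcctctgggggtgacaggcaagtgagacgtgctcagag
The windows are chr7:100949284-100949583 for MUC3A, chr7:100969315-100969614 for MUC12 and chr7:101019831-101020130 for MUC17. The letters searched on both strands were TATAAA for the TATA box, CCAAT for the CCAAT box, GGGCGG for the GC box, TTTATNG for caudal-type factors, AGATAA for GATA factors, CAAAGTCC for an HNF4 site, TGATGNAAT for the ATF4 composite site, TGACGTCA for the cyclic AMP response element and CACGTG for the E-box. In the MUC12 window, TATAAA (on the opposite strand) and the caudal-type letters matched overlapping letters starting at position -31. These letters occur in 11.5% and 9.73% of the 35116 RefSeq promoters of this length. The MUC3A window held a CCAAT box at position -187 and a GC box at position -59, which occur in 34.6% and 45% of promoters. None of the 9 motifs matched in the MUC17 window, which says only that these letters are not in it.

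POLR1D was below every SCR library in all silenced libraries of both lines. In HT29 it was 6036, 4711, 4433 and 5010 in SCR, 3414 and 3492 with siPOLR1D2, and 2858 and 2550 with siPOLR1D3 (deposited values, normalized counts), so the mean of silenced cells was 0.610 of the SCR mean. In SW480 the SCR libraries ran from 1829 to 2599 and the silenced ones from 843 to 1336, a ratio of means of 0.490. The libraries also differed in ways that the groups do not explain. In SW480 the first principal component, with 42% of the variance, set SCR replicates 1 to 3 and siPOLR1D2 replicates 1 and 2 on one side and the other 7 libraries, all of siPOLR1D3 among them, on the other. The labels give no reason for this split. In HT29 the first component (43.3%) set SCR replicate 1 apart from the rest. All 10 colorectal epithelial markers were tested in SW480, and KRT20 (log2 difference 2.74, adjusted p = 0.00698) and KRT19 (0.70, adjusted p = 0.0226) rose with silencing. The summed value of the list was 139604 to 270494 in SCR and 184791 to 231945 in silenced SW480 cells, and 217886 to 260096 across all HT29 groups. KRT20 was near 0 in SW480 SCR cells, at 1.73 to 11.2, and 20.7 to 94.6 in silenced ones. It reached the level needed for testing only through the silenced libraries, so its call is no independent support for a rise. CDX2, an intestinal homeobox factor, was at 0 to 0.465 in HT29 SCR cells and 3.96 to 7.91 in silenced ones. In SW480, CDX2 was 45.5 to 169 in SCR, 46.5 to 63.4 with siPOLR1D2 and 161 to 224 with siPOLR1D3. The 6 leukocyte markers summed to at most 98.7 in any library. The 7 fibroblast markers summed to 235 to 1273 in SW480 SCR and 262 to 1137 in silenced cells, and to 18.3 to 27.7 in HT29 SCR and 26.9 to 86.9 in silenced cells. With siPOLR1D3 in SW480, 4 of the 5 tested fibroblast markers were above 0 (median log2 difference 1.325). Only LUM passed there, and it was lower (-1.29, adjusted p = 0.00696 by limma), where 6.60% of all genes were called. The 5 endothelial markers summed to at most 214. Whether the mucins and these markers are linked was not tested.

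In unsilenced cells the mucins were ordered by their level per kb of their longest annotated transcript, counting repeated rows once. In HT29 SCR cells MUC20 led with a median of 581 per kb (506 to 632, n = 4), followed by MUC13 at 172 (126 to 286). The next levels were MUC2 at 53.7, MUC1 at 34.9 and MUC5AC at 31.0 per kb, and the ranges of these 3 overlapped. MUC5B (7.41) and MUC4 (4.93) came next and overlapped, and MUC3A (1.86), MUC12 (1.41) and MUC17 (0.36) were lowest, with overlapping ranges. In SW480 SCR cells MUC13 led with a median of 209 per kb (85.8 to 329, n = 6), above the highest library of any other member. MUC5B at 18.7, MUC20 at 9.98, MUC1 at 9.96, MUC5AC at 8.88, MUC12 at 5.10 and MUC2 at 4.87 per kb each overlapped the next in the order. MUC3A (1.06), MUC4 (0.477) and MUC17 (0.0522) were lowest. The members of the chromosome 7 cluster were thus low in both lines, with MUC12 the highest of the 3 in SW480 by the median. The lines were normalized separately, so no level was tested between them, and the tandem repeats of a cell line can differ in length from the annotated transcripts.

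**Figure D1:**
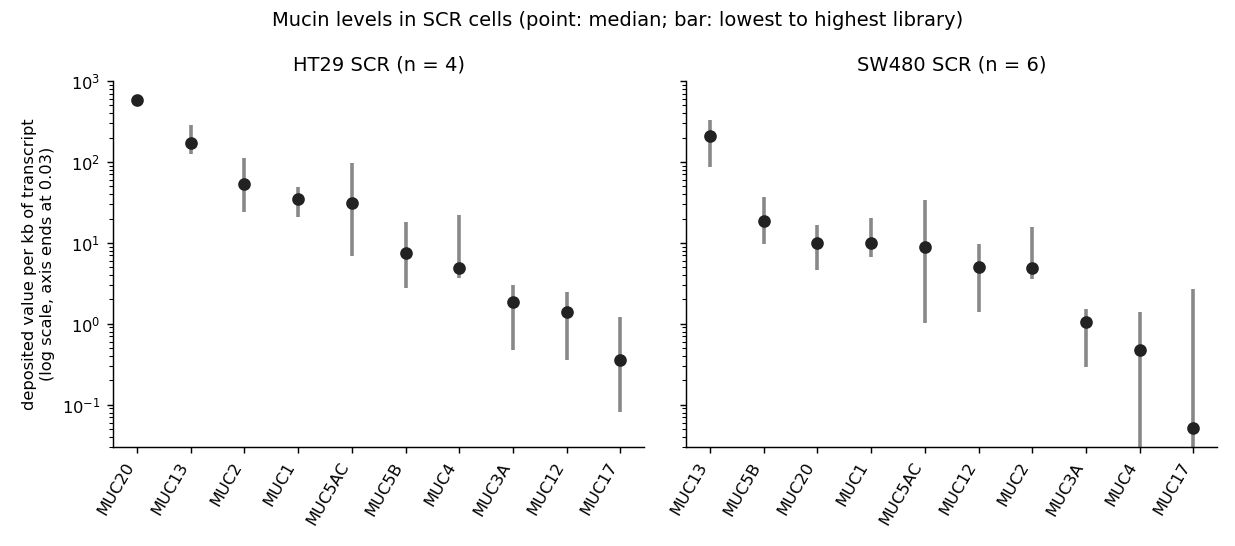
Deposited value per kb of transcript (vertical, log scale) of the 10 mucins in SCR cells of HT29 (left, 4 libraries) and SW480 (right, 6 libraries). Points are medians and bars run from the lowest to the highest library; MUC20 led in HT29 at 581 per kb and MUC13 in SW480 at 209, and the bars of MUC4 and MUC17 in SW480 reach 0, below the end of the axis.

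MUC12, a membrane mucin of the colon, was higher in the silenced cells of both lines, but it passed the test across all genes only with siPOLR1D3 in SW480. In HT29 its values were 6.05, 8.48, 38.7 and 41.1 in SCR, 60.1 and 72.3 with siPOLR1D2, and 129 and 159 with siPOLR1D3. All 4 silenced libraries lay above all 4 SCR libraries, as in 2.72% of the 13274 genes tested in HT29, and the SCR libraries themselves fell into a low and a higher pair. The ratio of means was 4.45, and the log2 difference was 2.42 ± 0.62 (SE, n = 4 against 4) on the scale log2(value + 1). This difference did not pass limma's test over all genes (unadjusted p = 0.00319, adjusted p = 0.355). The exact 2-sided permutation test gave p = 0.0286, the smallest that 4 against 4 libraries can give. No mucin passed in HT29, and neither did any of the 13274 genes (0%), of which 1422 had an unadjusted p under 0.05. POLR1D, the target, did not pass there either (adjusted p = 0.355 by limma). The study, which tested with DESeq2, listed MUC12 as differentially expressed in both lines, so its test and the limma test differ for MUC12.

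In SW480, MUC12 was 23.3, 29.6, 71.05, 163, 125 and 99.7 in SCR replicates 1 to 6. It was 183, 91.3 and 73.4 with siPOLR1D2, and 391, 414 and 428 with siPOLR1D3. The siPOLR1D2 libraries overlapped the SCR libraries, whereas the 3 siPOLR1D3 libraries lay above all others. SCR replicates 1 to 3 were lower than SCR replicates 4 to 6, along the split on the first component. With both siRNAs pooled, the log2 difference was 1.61 ± 0.57 (SE, n = 6 against 6), adjusted p = 0.107 by limma, and the exact permutation test gave p = 0.0390. With siPOLR1D3 alone it rose by 2.57 ± 0.55 (adjusted p = 0.0184 by limma), a ratio of means of 4.82. With siPOLR1D2 the difference was 0.64 ± 0.55 (95% interval -0.55 to 1.83, adjusted p = 0.516). The siPOLR1D3 call was lost when any one of its 3 libraries was left out, with an adjusted p of 0.0768 to 0.0904. The siRNAs themselves, compared after the values had been seen, differed by 1.93 ± 0.63 in MUC12, siPOLR1D3 over siPOLR1D2 (adjusted p = 0.107).

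**Figure D2:**
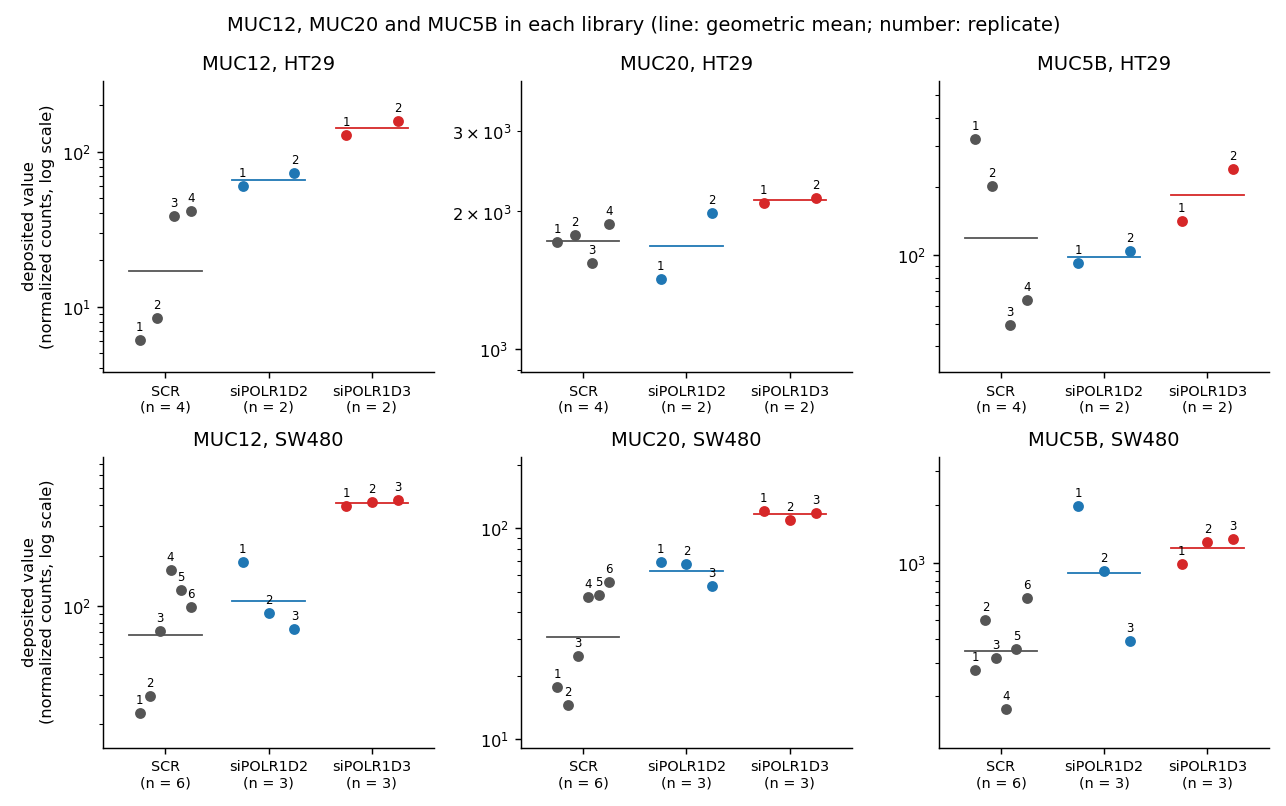
Deposited value (vertical, log scale) of MUC12, MUC20 and MUC5B in each library of HT29 (top) and SW480 (bottom), by transfection. Points are libraries with their replicate number and lines are geometric means. In SW480 the 3 siPOLR1D3 libraries lie above all SCR libraries for each of the 3 genes, and in HT29 this holds for both siRNAs with MUC12 only. In HT29, 2.72% of all genes tested had every silenced library above every SCR library. The share of all genes set apart in this way by a single siRNA is not given, so the SW480 pattern does not set these genes apart from others.

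Of the 8 mucins tested in SW480, MUC5B and MUC20 rose when both siRNAs were pooled, where 6.73% of the 15019 genes tested were called. MUC4 and MUC17 had too few libraries with a value of at least 10 to be tested. MUC20, a short membrane mucin that binds the receptor MET, was 17.7, 14.6, 24.7, 47.4, 48.4 and 55.4 in SW480 SCR replicates 1 to 6. It was 69.5, 67.5 and 53.0 with siPOLR1D2, and 121, 109 and 119 with siPOLR1D3. Of the 6 silenced libraries, 5 lay above every SCR library, and the siPOLR1D3 libraries lay above those of siPOLR1D2. The log2 difference was 1.45 ± 0.36 (SE, n = 6 against 6, adjusted p = 0.0310 by limma). The exact permutation test gave p = 0.00433, where 0.00216 is the smallest possible. As with MUC12, SCR replicates 1 to 3 were lower than 4 to 6. Each MUC20 value is the sum of 8 rows, 3 of them repeats. With its highest row alone, MUC20 was too low to be tested in SW480, so its rise there rests on the summed rows.

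MUC5B, a gel-forming mucin, was 274, 499, 316, 172, 352 and 657 in SW480 SCR replicates 1 to 6. It was 1990, 902 and 390 with siPOLR1D2, and 986, 1290 and 1337 with siPOLR1D3. Of the silenced libraries, only siPOLR1D2 replicate 3 fell within the range of the SCR libraries, and SCR levels did not follow the split on the first component. The log2 difference was 1.57 ± 0.37 (adjusted p = 0.0251 by limma), and the exact permutation test gave p = 0.00649. Both calls were near the threshold. That of MUC5B was lost without SCR replicate 3 or 4 or siPOLR1D3 replicate 2 or 3 (adjusted p up to 0.0564). That of MUC20 was lost without SCR replicate 2 or 3 or any one siPOLR1D3 library (adjusted p up to 0.0707).

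By siRNA, 3 of the 8 tested mucins rose with siPOLR1D3 in SW480, MUC12, MUC20 (1.89 ± 0.40, adjusted p = 0.0182) and MUC5B (1.78 ± 0.46, adjusted p = 0.0379), where 6.60% of genes were called. The call of MUC20 was lost without any one siPOLR1D3 library (adjusted p up to 0.101). That of MUC5B was lost without any one siPOLR1D3 library, SCR replicate 1, 3, 4 or 5, or siPOLR1D2 replicate 2 (adjusted p up to 0.147). With siPOLR1D2 no mucin passed, while 8.16% of genes did. The differences were 1.36 ± 0.46 for MUC5B (adjusted p = 0.0870) and 1.01 ± 0.40 for MUC20 (adjusted p = 0.139), and without siPOLR1D2 replicate 3 MUC5B passed (1.95, adjusted p = 0.0253). Both siRNA comparisons share the SCR libraries. No mucin passed between the siRNAs in SW480, where 3.32% of genes did. MUC20 was higher with siPOLR1D3 by 0.88 (95% interval -0.13 to 1.88, adjusted p = 0.291). In HT29 no mucin and no gene passed with siPOLR1D2 (0%, 579 genes with an unadjusted p under 0.05), with siPOLR1D3 (0%, 1031 genes) or between the siRNAs (0%, 207 genes). MUC12 differed from SCR by 1.87 ± 0.74 with siPOLR1D2 and by 2.98 ± 0.74 with siPOLR1D3 in HT29 (adjusted p = 0.837 and 0.492).

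**Figure D3:**
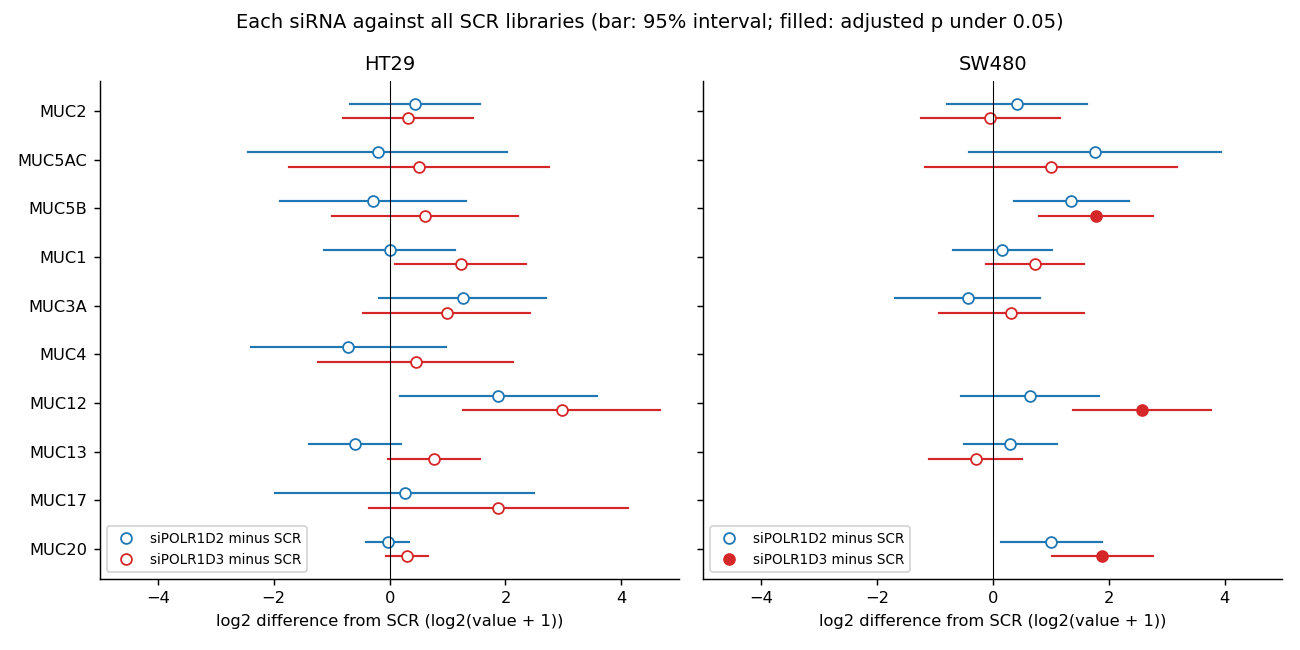
Log2 difference of each siRNA from all SCR libraries (horizontal, log2(value + 1)) for the 10 mucins in HT29 (left) and SW480 (right), gel-forming mucins at the top. Bars are 95% intervals and filled points have an adjusted p under 0.05; MUC5B, MUC12 and MUC20 with siPOLR1D3 in SW480 are the 3 filled points, and MUC4 and MUC17 were not tested in SW480.

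Because SCR libraries differed with their number, each siRNA was also set against separate SCR libraries, the lower-numbered for siPOLR1D2 and the higher-numbered for siPOLR1D3. This pairing is an assumption and is not in the labels. In SW480, siPOLR1D3 against SCR replicates 4 to 6 gave 6 of 7 tested mucins past the threshold, where 21.9% of 13919 genes were called. MUC5AC (2.57 ± 0.38), MUC5B (95% interval 1.04 to 2.56), MUC12 (1.69 ± 0.18), MUC20 (1.19 ± 0.20) and MUC1 (1.08 ± 0.26) were higher. MUC13, a membrane mucin of the intestinal epithelium, was lower (log2 difference -0.75 ± 0.16). Their adjusted p values ran from 0.000116 for MUC12 to 0.0127 for MUC1. MUC2 differed by 0.27 (adjusted p = 0.580), in place of -0.04 against all SCR libraries. For siPOLR1D2 against SCR replicates 1 to 3 the difference of MUC12 was 1.52 ± 0.51 and that of MUC20 1.71 ± 0.35, and no gene passed, as the adjusted p of 0.258 and 0.132 shows for these members.

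In HT29, siPOLR1D3 against SCR replicates 3 and 4 gave 4 of 8 tested mucins past the threshold, where 2.50% of 12384 genes were called. These were MUC5AC (2.06 ± 0.19, adjusted p = 0.00774), MUC12 (1.82 ± 0.24, adjusted p = 0.0226), MUC5B (1.69 ± 0.30, adjusted p = 0.0342) and MUC4 (1.28 ± 0.25, adjusted p = 0.0446). With siPOLR1D2 against SCR replicates 1 and 2, none of the 8 tested mucins passed, where 0.0497% of 12063 genes did. MUC12 and MUC17 had too few libraries with a value of at least 10 to be tested there. MUC5AC (-1.76 ± 0.40) and MUC5B (-1.36 ± 0.34) had the opposite sign. Each of these comparisons rests on 2 libraries a side. The direction of MUC5AC and MUC5B in HT29 therefore changed with the SCR libraries it was measured against, whereas that of MUC12 was upward against either pair, since every silenced library exceeded every SCR library.

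The side of the first component was read from the values, not from the labels. In SW480, a term for it raised the number of mucins called from 2 to 4 of 8, where 13.3% of genes were called. MUC5AC (1.82 ± 0.43, adjusted p = 0.0152), MUC5B (1.62 ± 0.36), MUC12 (1.37 ± 0.43, adjusted p = 0.0499) and MUC20 (1.29 ± 0.26) were higher. Within the side of SCR replicates 1 to 3, with siPOLR1D2 only, MUC12 differed by 1.79, MUC20 by 1.83 and MUC5B by 1.93, and 0 of 15110 genes passed. Within the other side 1 of 9 tested mucins passed, MUC5AC (2.30, adjusted p = 0.00908), where 12.5% of 15553 genes were called. MUC12 (1.07, adjusted p = 0.225), MUC20 (0.91, adjusted p = 0.0727) and MUC5B (1.40, adjusted p = 0.0845) did not pass there. The siPOLR1D3 libraries are all on one side, so a part of their difference from SCR replicates 1 to 3 cannot be told apart from that split.

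The remaining members did not pass against all SCR libraries in either line. MUC5AC, a gel-forming mucin of the stomach and airway, was 597, 1194, 471, 36.0, 87.9 and 149 in SW480 SCR replicates 1 to 6, where the first 3 were all above the last 3. It was 3249, 706 and 222 with siPOLR1D2, and 416, 431 and 573 with siPOLR1D3. The pooled log2 difference was 1.39 ± 0.80 (95% interval -0.34 to 3.11, adjusted p = 0.323). In HT29 it was 3404, 1811, 237 and 350 in SCR and 521 to 1284 in silenced cells, so the SCR libraries spanned the silenced ones. MUC5AC and MUC5B varied together in HT29 (Pearson's r = 0.959 over 8 libraries), which share SCR replicate 1 at the top of both genes. Each MUC5AC value is the sum of 2 equal rows.

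**Figure D4:**
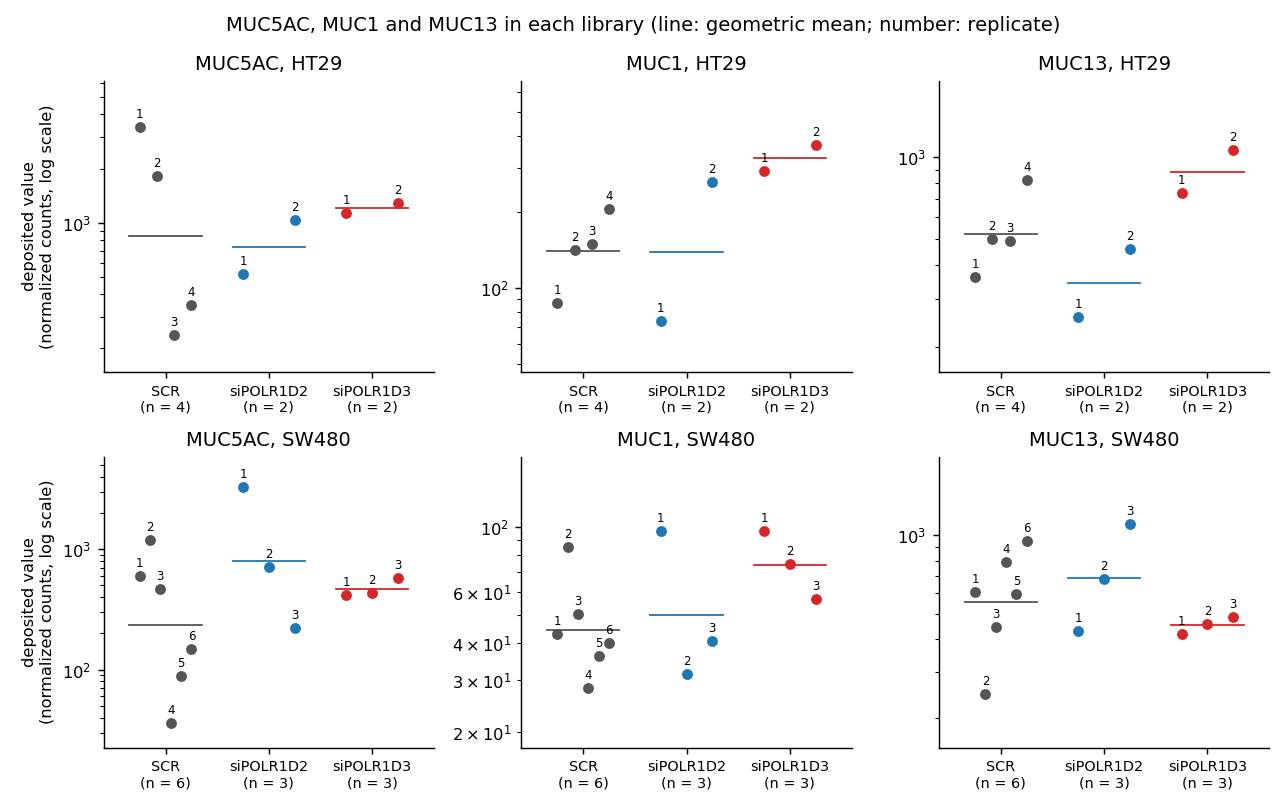
Deposited value (vertical, log scale) of MUC5AC, MUC1 and MUC13 in each library of HT29 (top) and SW480 (bottom), by transfection. Points are libraries with their replicate number and lines are geometric means; the SCR libraries of MUC5AC fall into a high and a low set in both lines, from 3404 to 237 in HT29 and from 1194 to 36.0 in SW480.

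MUC2, the goblet cell mucin, was 798, 1426, 563 and 305 in HT29 SCR libraries and 822 to 916 in silenced ones (0.38 ± 0.38, adjusted p = 0.706). In SW480 it was 45.9 to 197 in SCR and 40.8 to 265 in silenced cells (0.19 ± 0.45, adjusted p = 0.838). MUC1, a widely expressed epithelial membrane mucin, was 86.8, 142, 149 and 206 in HT29 SCR cells, 74.1 and 262 with siPOLR1D2 and 292 and 368 with siPOLR1D3. Both siPOLR1D3 libraries were above all SCR libraries (1.23 ± 0.50, adjusted p = 0.609 by limma). The exact permutation test gave p = 0.133, the smallest that 2 against 4 libraries can give. In SW480, MUC1 was 28.2 to 85.4 in SCR and 31.45 to 96.4 in silenced cells (0.45 ± 0.33, adjusted p = 0.448). MUC13 was 362 to 823 in HT29 SCR and 259 to 1058 in silenced cells, and 247 to 948 and 421 to 1108 in SW480. Its pooled log2 differences were 0.09 ± 0.41 in HT29 and 0.00353 ± 0.31 in SW480 (95% interval -0.67 to 0.68). In each line the means of the siRNAs lay on either side of the SCR mean. In HT29 MUC13 was 259 and 458 with siPOLR1D2 and 737 and 1058 with siPOLR1D3, higher with siPOLR1D3 by 1.36 (95% interval 0.44 to 2.27, unadjusted p = 0.00891, adjusted p = 0.9995). In SW480 the siPOLR1D2 mean was 739 and the siPOLR1D3 mean 455, a difference of -0.59 (95% interval -1.52 to 0.33).

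MUC3A, the neighbour of MUC12, was 33.6, 19.3, 5.36 and 22.5 in HT29 SCR libraries and 37.1, 47.9, 28.8 and 41.8 in silenced ones. Of these, 3 lay above every SCR library (1.12 ± 0.49, unadjusted p = 0.0445, adjusted p = 0.454). In SW480 it was 3.31 to 16.9 in SCR and 2.83 to 26.7 in silenced cells (-0.06 ± 0.48, 95% interval -1.10 to 0.98). MUC17, on the other side of MUC12, was 1.49, 1.16, 8.77 and 17.1 in HT29 SCR libraries, 2.44 and 11.8 with siPOLR1D2, and 19.3 and 19.5 with siPOLR1D3 (1.07 ± 0.84, adjusted p = 0.630). In SW480 it was listed at 0 to 38.1 in SCR, where replicate 2 held the 38.1, and at 0 to 2.01 in silenced cells. MUC4, a ligand of the receptor ERBB2, was 511, 107, 77.1 and 71.1 in HT29 SCR libraries and 59.0 to 221 in silenced ones (-0.13 ± 0.62, adjusted p = 0.948). In SW480 it was 0 to 30.6 in SCR and 2.15 to 36.6 in silenced cells. MUC5B in HT29 was 49.5 to 321 in SCR and 92.9 to 238 in silenced cells (0.16 ± 0.58, adjusted p = 0.925). MUC20 was 1545 to 1875 in HT29 SCR and 1425 to 2144 in silenced cells (0.13 ± 0.14, 95% interval -0.19 to 0.45).

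Across the members, the log2 difference was above 0 for 9 of 10 in HT29 and 7 of 8 in SW480, against 50.02% and 51.53% of all genes tested. This tally is a description, since it counts MUC12 itself, members that vary together and values near 0, such as MUC13 in SW480 (0.00353). In HT29 the signs of MUC2, MUC5AC and MUC5B turned with a block for the replicate number. The siRNAs differed in this tally in HT29, with 5 of 10 mucins above 0 with siPOLR1D2 and 10 of 10 with siPOLR1D3. In SW480 it was 7 of 8 with siPOLR1D2 and 6 of 8 with siPOLR1D3. No mucin in SW480 had all 6 silenced libraries above all 6 SCR libraries, as 1.68% of genes did. The median of the 3 gel-forming mucins was 0.16 in HT29 and 1.39 in SW480, and that of the membrane mucins 0.61 and 0.45. With siPOLR1D2 alone the HT29 medians were -0.20 and 0.00127, and with siPOLR1D3 alone 0.51 and 0.99. The medians of all genes were 0.000195 and 0.01. The response of each mucin was then compared between the lines. None passed, as for all but 5 of 12724 genes (0.0393%). The difference of responses, SW480 minus HT29, was 1.32 ± 0.46 for MUC20 (unadjusted p = 0.00927, adjusted p = 0.376), 1.41 ± 0.70 for MUC5B (adjusted p = 0.597) and -1.18 ± 0.72 for MUC3A (adjusted p = 0.689). For MUC12 it was -0.82 with a 95% interval of -2.72 to 1.08 (adjusted p = 0.876).

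Genes beside the mucins were examined to see whether a whole region moved. At 7q22.1, 13 of 16 flanking genes were tested in SW480, and 2 rose, SRRT (0.68, adjusted p = 0.0399), which takes part in RNA processing, and EPHB4 (0.54, adjusted p = 0.0486), an ephrin receptor, where 6.73% of all genes were called. The median log2 difference of the 13 was -0.22. With siPOLR1D2 alone SRRT was higher (0.87, adjusted p = 0.0261) and MOGAT3 lower (-1.33, adjusted p = 0.0306), where 8.16% of all genes were called. With siPOLR1D3 alone none of the 13 passed, where 6.60% of all genes were called. The genes closest to the cluster did not pass, among them TRIM56 (-0.43, adjusted p = 0.122). At 11p15.5, CTSD, the lysosomal protease cathepsin D, rose (0.79, adjusted p = 0.0291) among 8 tested and passed with neither siRNA alone, while MUC6, the mucin next to MUC2, differed by 0.22 (adjusted p = 0.732). None of 6 tested genes around MUC4 and MUC20 passed, with both siRNAs or with either. None of the 6 tested around MUC13 passed with both siRNAs pooled. With siPOLR1D2, ZNF148 was higher (0.54, adjusted p = 0.0187) and HEG1 lower (mean 719.8 against 1512 in SCR, adjusted p = 0.0424). With siPOLR1D3 the integrin gene ITGB5 was lower (-1.11, adjusted p = 0.0419). At the shares of 8.16% and 6.60% of all genes, so few calls in such short lists do not set these neighbours apart.

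**Figure D5:**
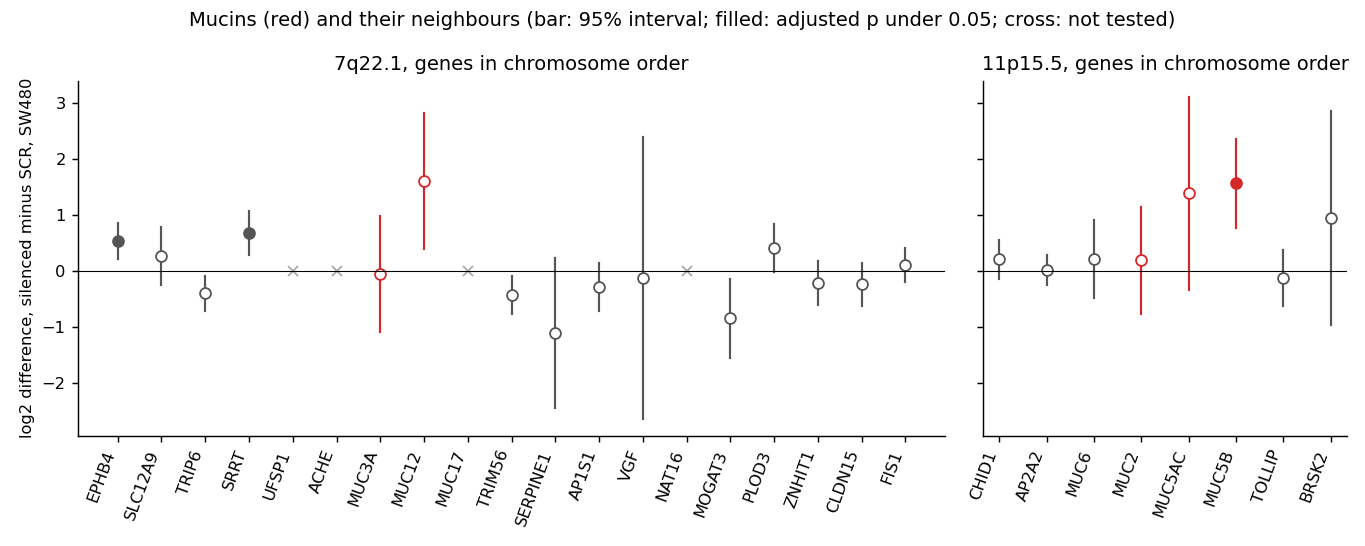
Log2 difference of silenced from SCR cells in SW480 (vertical, log2(value + 1)) for mucins (red) and their coding neighbours in chromosome order at 7q22.1 (left) and 11p15.5 (right). Bars are 95% intervals, filled points have an adjusted p under 0.05 and crosses were not tested; MUC12 at 1.61 stands beside MUC3A at -0.06, and MUC5B at 1.57 beside MUC5AC at 1.39.

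Genes that make, modify or release mucus were counted in SW480 from lists. Of all genes tested, 6.73% were called with both siRNAs pooled, 8.16% with siPOLR1D2 and 6.60% with siPOLR1D3. At these shares a list this short can hold no call or a single one, so the counts do not set the lists apart. Of 14 goblet cell and mucus granule genes, 4 were tested and none passed with both siRNAs pooled. With siPOLR1D3 alone 1 of the 4 rose, FCGBP, a protein bound to MUC2 in mucus (mean 57.6 in SCR and 195 with siPOLR1D3, adjusted p = 0.0178). The summed value of the 14 was 120 to 221 in SCR, 199 to 262 with siPOLR1D2 and 350 to 417 with siPOLR1D3. It was thus highest with siPOLR1D3, where FCGBP alone averaged 195. Whether this list and the mucins are linked was not tested. Over both siRNAs FCGBP averaged 136 (1.03 ± 0.42, adjusted p = 0.159), and TFF3, a trefoil peptide, differed by 0.46 (adjusted p = 0.466). Of 25 tested enzymes of mucin-type O-glycosylation none passed, with both siRNAs or with either. With both, 15 were above 0, as were 51.53% of all genes. GALNT2, which starts O-glycan chains, was nearest (0.38 ± 0.12, adjusted p = 0.0779), followed by GALNT10 (-0.81), GCNT1 (0.81) and FUT2 (0.62). Of 14 tested transcription factors of the secretory lineage and of mucin genes none passed with both siRNAs pooled, with KLF5 at -0.58 (adjusted p = 0.0631) and FOXA2 at 0.71 (adjusted p = 0.105). With siPOLR1D2 alone CREB3L4, a membrane-bound factor of the CREB family, was lower (-0.73, adjusted p = 0.0440). ATOH1, the factor that specifies secretory cells, was at 0 in every SW480 library. Of 8 tested genes for shedding and binding of mucins none passed, with GOPC at 0.35 (adjusted p = 0.0600) and the sheddase ADAM17 at -0.36 (adjusted p = 0.200). Among 7 other tested genes named as mucins none passed, MUC16 included (-0.49, adjusted p = 0.457). In HT29, where no gene passed, the goblet list summed to 2812 to 23273 in SCR and 2113 to 2690 in silenced cells.

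The genes most like MUC12 were found by Pearson's r of log2 values over the 20 libraries, after the SCR mean of each line was subtracted. Among 12723 genes tested in both lines they were TSGA10 (0.908), RAB40AL (0.854), NUTM2D (0.852), MEGF6 (0.838) and PTMAP11 (0.838). TSGA10 had a median of 57.6 in HT29 SCR, 87.7 with siPOLR1D2 and 87.0 with siPOLR1D3, and 111, 115 and 159 in SW480. PTMAP11 had medians of 25.1, 33.9 and 43.3 in HT29 and 30.9, 40.7 and 61.3 in SW480. Among the members MUC20 ranked 548 with r = 0.591, and MUC1 came next at 0.483. Within SW480, MUC20 and MUC12 had r = 0.931 over 12 libraries and MUC5B 0.587, and within HT29 MUC17 and MUC12 had 0.827 over 8 libraries, MUC1 0.674 and MUC5B -0.305. Libraries of one line share the split described above, and these values are descriptions.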

How the data were processed

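Coding transcripts captured with a TruSeq RNA Exome kit were sequenced from 20 libraries. Per the labels and the study's methods, the authors checked reads with FastQC 0.11.5, quantified them with kallisto 0.44.0 (hg38), normalized the counts with DESeq2 1.24.0 and deposited 1 signal value per gene and library. The annotation and the use of strand are not given in the sources used here. The values are not whole, since 21.0% to 49.1% of the low values in a library were multiples of its most frequent low value within 0.01, so reads were not recovered and a test for values in place of counts was used. Library totals were 17.6 M to 23.0 M. Depth behind a single gene is unknown, and no interval or floor for 0 was derived. Each line was normalized separately. The 40117 rows were summed by name. MUC2 had 3 rows, MUC4 and MUC20 had 8 each (1 and 3 repeated) and MUC5AC 2 equal ones, and their copies may split reads. MUC20 overlaps MUC20-OT1 on the same strand, and MUC3A, MUC5B and MUC12 overlap antisense genes.

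Differences were tested with limma 3.58.1 (R 4.3.3) on log2(value + 1), which understates changes of low genes, with an empirical Bayes trend, keeping genes that reached 10 in 4 (HT29) or 6 (SW480) libraries. The Benjamini-Hochberg adjustment ran over all genes, with a threshold of 0.05. Silenced cells of both siRNAs were compared with SCR, each siRNA with SCR in a fit of 3 groups, and the lines by an interaction term over 20 libraries. Single genes were compared by exact 2-sided permutation tests of mean log2 values (scipy 1.17.1, Python 3.11.15). The fit was also run on simulated data with independent noise in each gene. Those data lack the splits between libraries described above, so no conclusion is drawn from them. No library was a copy of another (mean chi-square per gene of 9.87 to 183 over 29 pairs). Positions are from GENCODE 29 and promoters from RefSeq, whose table matched 7 of the 10 mucins, not MUC5AC, MUC5B and MUC20. The members and gene lists were chosen with earlier results of these data known, and the 2 siRNAs were compared with each other after the values had been seen. Named genes outside the members are POLR1D, up to 4 genes of each list with the smallest adjusted p in SW480 and the 5 most like MUC12. CDX2, ATOH1 and MOGAT3 fall outside that rule and were chosen after their values were seen. The genes near MUC1 are not reported here. Alternatives are given in the closing section.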

Additional observations from a re-analysis of the deposited data

Results flagged for a closer look

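In 3 of 20 sets of SCR values, 1 library stood far from the others of its group by Dixon's test on the deposited values. How many sets chance alone sets apart on this scale was not derived, so no conclusion is drawn from the count of 3. Whether these libraries also stand apart on log2(value + 1), the scale of the limma tests, was not tested. MUC2 was 196.84 in SW480 SCR replicate 3, and the other 5 SCR libraries were at 70.7 or below. MUC4 was 511.31 in HT29 SCR replicate 1, against at most 107 in the other 3. MUC17 was 38.144 in SW480 SCR replicate 2, against at most 5.86 in the other 5.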

How the results depend on the processing

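Of 789 alternative values of single mucins, 706 kept their direction and their side of the threshold, 31 lost a call, 11 gained one and 41 changed sign. The log2 difference of MUC12 from SCR was above 0 in both lines in all alternatives run. In SW480 the number of mucins called among silenced cells was 1 without a filter on low values (MUC5B), 1 with the highest row of each name (MUC5B, with MUC20 too low to be tested), 4 with a term for the side of the first component (MUC12 1.37, adjusted p = 0.0499), 0 within the side of SCR replicates 1 to 3 (where 0 of 15110 genes passed) and 1 within the other (1939 of 15553). With separate SCR libraries it was 6 in SW480 and 4 in HT29 for siPOLR1D3. With 1 library left out, the number ran from 0 to 2 for silenced SW480 cells, from 0 to 1 for siPOLR1D2 and from 0 to 3 for siPOLR1D3, while the genes called ran from 534 to 1283, from 499 to 1821 and from 121 to 1359.

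Replicate numbers did not pair the libraries (mean correlation of same-numbered residuals -0.0368 in HT29 and -0.0153 in SW480). HT29 replicates 3 and 4 and SW480 replicates 4 to 6 are SCR libraries only. A block for the replicate number therefore measures silenced cells against SCR replicates 1 and 2 in HT29 and 1 to 3 in SW480. With this block, MUC12 in HT29 was 3.58 (adjusted p = 0.0118 by limma). There 1 mucin was called among silenced cells (735 of 13274 genes) and 1 with siPOLR1D3 (23 genes). In silenced SW480 cells 0 mucins and 0 of 15019 genes were called, with MUC5B at 1.55 and MUC20 at 2.14. Signs turned under the block in HT29 for MUC2 (-0.30), MUC5AC (-1.40, and -1.04 with siPOLR1D3) and MUC5B (-0.92, and -0.47 with siPOLR1D3). In SW480 they turned for MUC2 (-0.12), MUC3A (0.23) and MUC5AC (-0.18, and -0.57 with siPOLR1D3).

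Other changes of sign concerned values that did not pass against all SCR libraries. MUC3A in SW480 was 0.031 with upper quartile and 0.00367 with total scaling, MUC4 in HT29 was 0.37 with its highest row, MUC13 in SW480 was -0.083 with the term for the side and -0.43 within the second side, and MUC1 was -0.045 within the first. With 1 library left out, differences in HT29 ran from -0.42 to 0.52 for MUC4, -0.46 to 0.82 for MUC5AC, -0.26 to 0.63 for MUC5B and -0.23 to 0.45 for MUC13. With siPOLR1D2 in HT29 they ran from -0.81 to 0.47 for MUC5AC, -0.70 to 0.19 for MUC5B and -0.27 to 0.20 for MUC20, and with siPOLR1D3 from -0.10 to 1.18 for MUC5AC. In SW480 they ran from -0.15 to 0.48 for MUC2, -0.33 to 0.24 for MUC3A and -0.23 to 0.16 for MUC13. The cause of these changes was not tested.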
